A study of Mus musculus with 16 samples.

Results

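Genes of antigen presentation by major histocompatibility complex (MHC) class II were examined in tumour cells enriched from mice bearing LLC1, a Lewis lung carcinoma line of mouse origin. The genes are H2-Aa, H2-Ab1, H2-Eb1, H2-DMa, H2-DMb1, Cd74 and Ciita. They were taken by symbol for their known roles, with earlier results of these data known, and are 7 of the 24334 genes of the deposited table. RNA sequencing was done after 16 days of treatment in 4 groups of 4 libraries, numbered 1 to 4. The groups were TMP195, an inhibitor of class IIa histone deacetylases, at 50 mg/kg, MYCi975, a compound that inhibits the transcription factor MYC, at 50 mg/kg, Combo, which received both compounds at doses not given separately, and Vehicle, which received DMSO. All groups share the tumour line and the enrichment of tumour cells, for which the sources used here give no method, nor the strain, sex and age of the mice. Whether each library comes from a different mouse is not stated, so p-values below reflect the spread among libraries, part of which may be technical.

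MHC class II molecules are pairs of an alpha and a beta chain that carry peptides from endocytosed proteins to the cell surface, where CD4+ T cells read them. H2-Aa and H2-Ab1 encode the alpha and the beta chain of the mouse molecule I-A, and H2-Eb1 encodes the beta chain of I-E. Cd74 encodes the invariant chain, which occupies the groove of new class II molecules until proteases remove it, and H2-DMa and H2-DMb1 encode the chains of H2-DM, which helps to exchange its last fragment for a peptide. Ciita encodes the coactivator that switches these genes on together. Dendritic cells, macrophages and B cells are the usual sources of class II, and many other cells make it when interferon gamma induces Ciita. Ptprc encodes CD45, a phosphatase on the surface of nearly all leukocytes, and was the gene to which the class II genes were related.

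Ciita does not bind DNA itself but is recruited by factors on a shared promoter module, in which an X box bound by the RFX complex lies upstream of a Y box bound by NF-Y. Promoters were searched because this module is what the class II genes are known to share. In the RefSeq promoter table of build GRCm38.p6, the 250 bases upstream of each start were searched on both strands for GNAAC, letters found in X boxes, followed after 18 to 30 bases by ATTGG, the reverse complement of the CCAAT letters of a Y box. The pair was present in the windows of H2-Aa, H2-Eb1 and H2-DMb1. These 3 stretches are printed 5′ to 3′ on the strand of the gene, with GNAAC and ATTGG in capitals, and lie on the minus strand for H2-Aa at chr17:34287852-34287919 and on the plus strand for H2-Eb1 at chr17:34305761-34305827 and for H2-DMb1 at chr17:34153082-34153149.
H2-Aa: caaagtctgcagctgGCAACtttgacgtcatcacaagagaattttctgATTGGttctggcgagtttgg
H2-Eb1: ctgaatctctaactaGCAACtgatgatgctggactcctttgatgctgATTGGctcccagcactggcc
H2-DMb1: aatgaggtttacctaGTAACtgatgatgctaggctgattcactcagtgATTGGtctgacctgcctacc
The letters between the motifs numbered 28 in H2-Aa, 27 in H2-Eb1 and 28 in H2-DMb1, and 43, 54 and 56 bases separated ATTGG from the start. Of all 32851 windows in the table, 611 (1.86%) held such a pair, while 33.85% held ATTGG and 79.58% held GNAAC. The range of spacings was set after these sequences had been read. Neither of the 2 windows of H2-DMa, nor those of Ptprc, held the pair. The window of H2-DMb2, the neighbour of H2-DMb1, held ATTGG and GNAAC but not the pair, and that of the protease gene Ctss lacked the pair too. This says only that the pair is not in these windows. H2-Ab1, Cd74 and Ciita were not matched in the table.

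The deposited values are variance-stabilised and close to a log2 scale, with a lowest value of 4.84 that all libraries share. Read depth is unknown, no interval that needs counts was computed, and the scale compresses differences near its lowest value, so differences of the class II genes understate their folds. The scale is not corrected for gene length, and levels are compared between libraries and not between genes. The keratin genes Krt8 and Krt18 and the mesenchymal gene Vim, all made by LLC1 cells, read at least 10.2, 10.2 and 16.7 in every library. Epcam, an epithelial adhesion gene, was at the lowest value in 9 of 16 libraries. Of the other genes of this list, Krt19 read 5.18 to 7.37 and Cdh1 4.84 to 6.07. The fibroblast markers Dcn and Col3a1 read at least 13.5 and 15.9 in every library. The share of tumour cells in the libraries was not measured. Ptprc passed 5.84, the level set for detection at 1 log2 unit above the lowest value, in 15 of 16 libraries, so the enriched cells held leukocyte RNA in every group. Bulk values cannot tell a change in the number of cells of a type from a change in RNA per cell.

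Class II genes were weakly expressed in these enriched tumour cells. H2-DMb1 passed the detection level in 16 of 16 libraries and H2-DMa in 15, whereas Cd74 passed it in 9, H2-Ab1 in 6 and H2-Aa, H2-Eb1 and Ciita in 5 each. Genes entered the tests when 4 or more libraries passed this level, which all 7 did. Of the 5 libraries in which H2-Eb1 passed it, 4 were TMP195 libraries, so this gene entered the tests mainly through the group in which it was highest, and likewise 4 of the 6 libraries for H2-Ab1 and 3 of the 5 for H2-Aa were TMP195 libraries.

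The classical chains and the invariant chain were highest after TMP195 alone. H2-Eb1, H2-Ab1, Cd74 and H2-Aa averaged 0.55 to 0.93 above Vehicle on the log2 scale, while Ciita and the 2 H2-DM genes were within 0.24 of it. No gene of the whole table passed limma's adjusted threshold in any comparison between groups, where an unadjusted p under 0.05 was reached by 767 of 15715 genes (4.88%) for TMP195 against Vehicle and by 837 (5.33%) for Combo against TMP195. The values are therefore given as they stand, with the unadjusted test beside them.

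**Figure D1:**
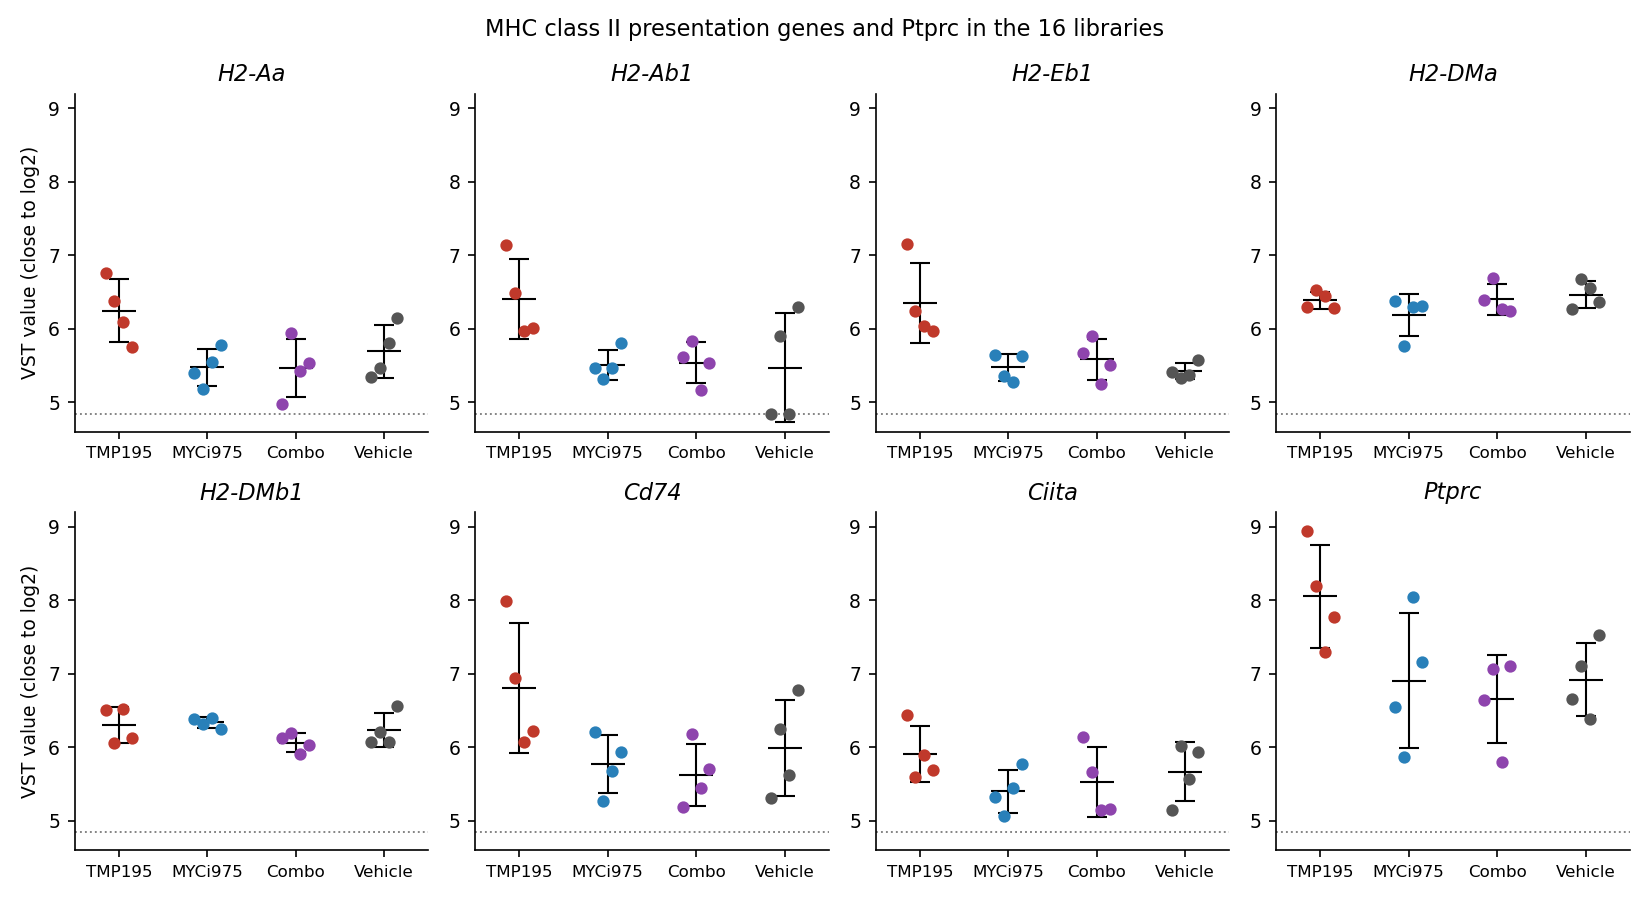
Variance-stabilised value (close to log2, vertical axis) of each class II gene and of Ptprc in the 16 libraries, by group, with replicates 1 to 4 as points from left to right. Bars show the mean and 1 SD over 4 libraries, and the dotted line is the lowest value of the table, 4.84. The 4 TMP195 libraries of H2-Eb1, at 5.97 to 7.16, lie above all 12 others.

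H2-Eb1 (ENSMUSG00000060586.12) read 7.16, 6.24, 6.04 and 5.97 in TMP195 libraries 1 to 4, 5.64, 5.36, 5.28 and 5.62 in MYCi975, 5.67, 5.90, 5.25 and 5.50 in Combo, and 5.42, 5.33, 5.38 and 5.58 in Vehicle. Every TMP195 library lay above every other library, the closest being Combo replicate 2 at 5.90. Over the whole table, 19 of 15715 tested genes (0.121%) showed such a separation of TMP195 from the other 12 libraries. As given above, H2-Eb1 entered the tests mainly through its TMP195 libraries, which limits what this share and its rank below can show. The means were 6.35 ± 0.55 in TMP195, 5.48 ± 0.18 in MYCi975, 5.58 ± 0.27 in Combo and 5.43 ± 0.11 in Vehicle (SD, n = 4 each), and the last 3 differed from each other by less than the SD of Combo. TMP195 exceeded Vehicle by 0.93 (SE 0.21, limma, unadjusted p = 0.000452), which ranked H2-Eb1 7th of 15715 genes by p, yet the adjusted p was 0.904. An exact permutation test of these 4 against 4 libraries gave p = 0.0286, two-sided, the smallest it can give, and 1.1% of all genes had TMP195 wholly above Vehicle.

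H2-Ab1 (ENSMUSG00000073421.7) read 7.14, 6.49, 5.97 and 6.02 in TMP195 libraries, 5.46, 5.32, 5.46 and 5.80 in MYCi975, 5.61, 5.84, 5.16 and 5.54 in Combo, and 4.84, 5.90, 4.84 and 6.30 in Vehicle. The Vehicle libraries were split, with replicates 1 and 3 listed at the lowest value and replicate 4 above 2 of the TMP195 libraries. The means were 6.41 ± 0.54 in TMP195, 5.51 ± 0.20 in MYCi975, 5.54 ± 0.28 in Combo and 5.47 ± 0.74 in Vehicle, of which the last 3 differed by less than 1 SD. TMP195 exceeded Vehicle by 0.93 (SE 0.31, limma, unadjusted p = 0.00726, adjusted p = 0.945). The exact permutation test, two-sided, gave p = 0.114.

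H2-Aa (ENSMUSG00000036594.16), whose product pairs with that of H2-Ab1, read 6.76, 6.38, 6.10 and 5.75 in TMP195 libraries, 5.39, 5.18, 5.54 and 5.78 in MYCi975, 4.98, 5.94, 5.42 and 5.53 in Combo, and 5.35, 5.47, 5.81 and 6.15 in Vehicle. TMP195 overlapped Vehicle, since TMP195 replicate 4 lay below Vehicle replicates 3 and 4. The means were 6.25 ± 0.43 in TMP195, 5.47 ± 0.25 in MYCi975, 5.47 ± 0.39 in Combo and 5.69 ± 0.36 in Vehicle, with the last 3 again within 1 SD of each other. TMP195 exceeded Vehicle by 0.55 (SE 0.24, limma, unadjusted p = 0.0312, adjusted p = 0.945). The exact permutation test gave p = 0.143.

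Cd74 (ENSMUSG00000024610.17) read 7.99, 6.95, 6.07 and 6.22 in TMP195 libraries, 6.20, 5.27, 5.67 and 5.93 in MYCi975, 5.18, 6.18, 5.44 and 5.70 in Combo, and 5.31, 6.25, 5.62 and 6.78 in Vehicle. Its highest library was TMP195 replicate 1 and its lowest Combo replicate 1. Vehicle replicate 4 exceeded 2 TMP195 libraries, and the means of 6.81 ± 0.88 in TMP195, 5.77 ± 0.39 in MYCi975, 5.63 ± 0.42 in Combo and 5.99 ± 0.66 in Vehicle overlapped in their SDs. TMP195 exceeded Vehicle by 0.82 (SE 0.38, limma, unadjusted p = 0.0456, adjusted p = 0.945), and by 0.42 without TMP195 replicate 1. The exact permutation test gave p = 0.229.

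The peptide loading genes lay close together in all groups. H2-DMa (ENSMUSG00000037649.11) read 6.30, 6.53, 6.45 and 6.28 in TMP195 libraries, 6.37, 5.76, 6.29 and 6.32 in MYCi975, 6.39, 6.70, 6.27 and 6.24 in Combo, and 6.27, 6.68, 6.55 and 6.36 in Vehicle. H2-DMb1 (ENSMUSG00000079547.5) read 6.51, 6.06, 6.53 and 6.12 in TMP195 libraries, 6.39, 6.32, 6.40 and 6.24 in MYCi975, 6.13, 6.19, 5.91 and 6.03 in Combo, and 6.07, 6.20, 6.08 and 6.56 in Vehicle. For both genes all groups overlapped except Combo and MYCi975 for H2-DMb1. TMP195 differed from Vehicle by -0.07 (SE 0.16) for H2-DMa and by 0.07 (SE 0.14) for H2-DMb1, both smaller than their standard errors. The sign of both differences changed under some alternative settings. H2-DMb1 shares 517 of its 1648 stretches of 31 bases (31.37%) with its neighbour H2-DMb2 in the GENCODE M21 transcripts, so its value may hold reads of that copy. H2-DMb2 itself lay between 4.84 and 5.41, never passed the detection level and was not tested.

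Ciita (ENSMUSG00000022504.11) read 6.44, 5.59, 5.90 and 5.69 in TMP195 libraries, 5.32, 5.06, 5.45 and 5.77 in MYCi975, 6.14, 5.66, 5.15 and 5.16 in Combo, and 5.15, 6.01, 5.57 and 5.94 in Vehicle. The 4 groups overlapped, and Combo replicate 1 was the second highest library for Ciita although it was the lowest for Cd74 and H2-Aa. TMP195 exceeded Vehicle by 0.24 (SE 0.25, limma, unadjusted p = 0.356, adjusted p = 0.967), and by 0.06 without TMP195 replicate 1 or without Vehicle replicate 1.

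As a list, 6 of the 7 genes were above Vehicle after TMP195, with a median difference of 0.55, and 4 of them had an unadjusted p under 0.05 in limma, of which only H2-Eb1 had an exact permutation p under 0.05. With Ptprc as a covariate, 4 were above Vehicle and 3 below, as H2-DMb1 and Ciita changed sign, and without TMP195 replicate 3, 5 were above it. Over all 15715 genes tested, 46.3% were above Vehicle, the median difference was -0.01, and 2.44% were above it at this unadjusted p. None was called at an adjusted p under 0.05, which holds for 0% of all genes, and the closest of the 7 was H2-Eb1. When TMP195 replicate 1 was left out, the median of the 7 was 0.38 and 2 of them had an unadjusted p under 0.05, a number that leaving out TMP195 replicate 2 or Vehicle replicate 1 also gave. As H2-Eb1, H2-Ab1 and H2-Aa entered the tests mainly through TMP195 libraries, the counts of this list partly follow from the filter.

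**Figure D2:**
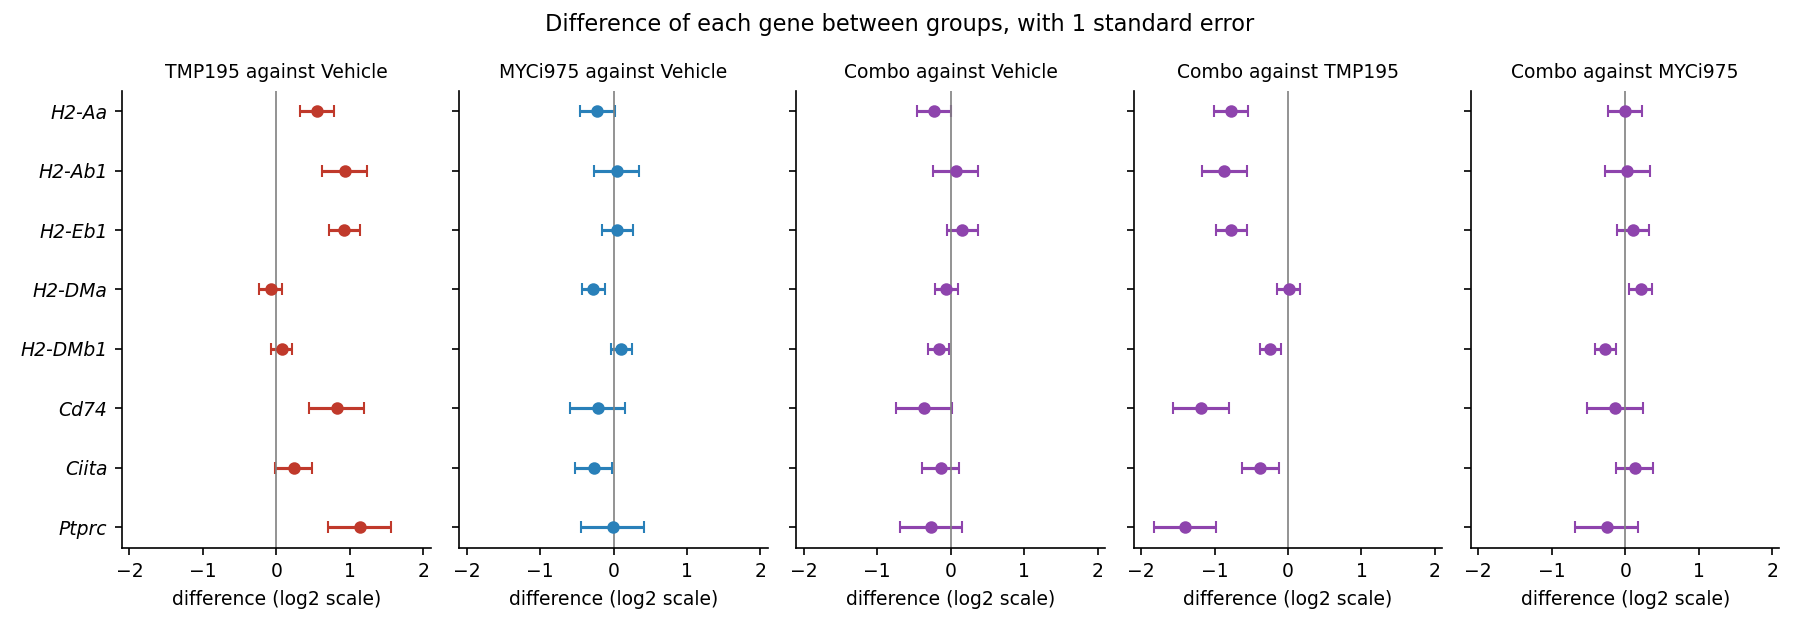
Difference between groups on the log2 scale (horizontal axis) for the class II genes and Ptprc in 5 comparisons, as points with bars of 1 SE from the limma fit to 16 libraries. The classical chains, Cd74 and Ptprc lie right of 0 for TMP195 against Vehicle and left of 0 for Combo against TMP195, and the 3 other panels stay near 0.

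MYCi975 alone left the class II genes near Vehicle. The 7 differences lay between -0.28 for H2-DMa (SE 0.16, limma, unadjusted p = 0.093) and 0.11 for H2-DMb1 (SE 0.14), with a median of -0.22 against -0.01 over all genes. None of the 7 had an unadjusted p under 0.05, against 3.03% of all genes. Combo was near Vehicle as well, with differences between -0.36 for Cd74 (SE 0.38) and 0.16 for H2-Eb1 (SE 0.21) and a median of -0.14. Here too none of the 7 had an unadjusted p under 0.05, against 4.09% of all genes.

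Combo lay below TMP195 for the same genes that TMP195 alone had above Vehicle, but both comparisons share the TMP195 libraries, so the second is no independent measurement. Cd74 averaged 5.63 ± 0.42 in Combo and 6.81 ± 0.88 in TMP195 (SD, n = 4 each), a difference of -1.18 (SE 0.38, limma, unadjusted p = 0.0064, adjusted p = 0.679) that became -0.78 without TMP195 replicate 1. H2-Ab1 averaged 5.54 ± 0.28 in Combo and 6.41 ± 0.54 in TMP195, a difference of -0.87 (SE 0.31, limma, unadjusted p = 0.0116, adjusted p = 0.766). For H2-Aa the difference was -0.78 (SE 0.24, limma, unadjusted p = 0.00414, adjusted p = 0.633) and for H2-Eb1 -0.77 (SE 0.21, limma, unadjusted p = 0.00221, adjusted p = 0.58), or -0.50 for H2-Eb1 without TMP195 replicate 1. The Combo libraries of H2-Eb1 and of H2-Ab1 all lay below the TMP195 libraries, which held for 1.62% of all genes, while those of Cd74 and H2-Aa overlapped with them.

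Of the 7 genes, 6 were lower in Combo than in TMP195 and 1 was higher, as were 50.7% of all genes, with a median of -0.77 against 0.00 over all genes, and 4 were lower at an unadjusted p under 0.05, against 2.84% of all genes. Among these 4, H2-Eb1, H2-Ab1 and H2-Aa entered the tests mainly through TMP195 libraries. This count and the separations above thus partly follow from the filter. Ciita differed by -0.38 (SE 0.25), H2-DMb1 by -0.24 (SE 0.14) and H2-DMa by 0.01 (SE 0.16), with unadjusted limma p-values of 0.151, 0.117 and 0.948. Between Combo and MYCi975 the median was 0.03, none of the 7 had an unadjusted p under 0.05, against 2.32% of all genes, and the lowest difference was that of H2-DMb1. Its Combo libraries, at 5.91 to 6.19, all lay below its MYCi975 libraries, at 6.24 to 6.40, a separation that 0.815% of all genes showed. The difference was -0.27 (SE 0.14, limma, unadjusted p = 0.0755, adjusted p = 1), with p = 0.0286 in the exact permutation test.

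Whether the combination differed from the sum of both compounds was tested as Combo minus MYCi975 minus TMP195 plus Vehicle. The value was below 0 for 6 of the 7 genes and above 0 for 1, as for 51.8% of all genes, with a median of -0.56 against 0.01 over all genes. H2-Eb1 had -0.82 (SE 0.30, limma, unadjusted p = 0.0148, adjusted p = 1), H2-Ab1 -0.91 (unadjusted p = 0.0516) and Cd74 -0.96 (unadjusted p = 0.0911), and 1 of the 7 was below 0 at an unadjusted p under 0.05, against 1.6% of all genes. In the F test over the 4 groups at once, H2-Eb1 ranked 13th of 15715 genes (unadjusted p = 0.00134), H2-Aa, H2-Ab1 and Cd74 had unadjusted p-values of 0.0129, 0.0196 and 0.0284, and every adjusted p was 0.999. An unadjusted p under 0.05 was reached by 3.83% of all genes. Ciita, H2-DMb1 and H2-DMa had 0.251, 0.272 and 0.343. The entry of H2-Eb1, H2-Ab1 and H2-Aa mainly through TMP195 libraries limits what the rank and these shares can show.

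Ptprc (ENSMUSG00000026395.17) was highest in the same group. It read 8.95, 8.19, 7.30 and 7.77 in TMP195 libraries, 6.55, 5.87, 8.04 and 7.16 in MYCi975, 6.64, 7.06, 5.81 and 7.10 in Combo, and 6.66, 7.10, 6.39 and 7.52 in Vehicle. The mean of 8.05 ± 0.70 in TMP195 stood above 6.92 ± 0.50 in Vehicle by 1.13 (SE 0.43, limma, unadjusted p = 0.0163, adjusted p = 0.945), and Combo differed from TMP195 by -1.40 (SE 0.43, limma, unadjusted p = 0.0043, adjusted p = 0.633). TMP195 replicate 1 was the highest library for Ptprc and for 5 of the 7 class II genes, H2-Aa, H2-Ab1, H2-Eb1, Cd74 and Ciita. Outside TMP195, Vehicle replicate 4 had the highest mean of the classical chains and Cd74, 6.20, with Ptprc at 7.52.

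Across the 16 libraries, the classical chains and Cd74 were higher where Ptprc was higher. For H2-Ab1 Pearson's r was 0.816 (permutation p = 0.00015) and Spearman's rho 0.787 (p = 0.00051), and for Cd74 r was 0.799 (permutation p = 0.00023) and rho 0.721 (p = 0.0021). For H2-Aa r was 0.76 (permutation p = 0.00066) and rho 0.706 (p = 0.00302), and for H2-Eb1 r was 0.733 (permutation p = 0.00118) and rho 0.541 (p = 0.0328). Ciita had r = 0.603 (permutation p = 0.0132) and rho = 0.562 (p = 0.0246). H2-DMb1 had r = 0.423 (permutation p = 0.103) and rho = 0.376 (p = 0.153), and H2-DMa had r = 0.261 (permutation p = 0.331) and rho = 0.144 (p = 0.596). These p-values, and those with groups centred below, are unadjusted, and the share of all genes with such a correlation was not computed. Differences in r between genes were not tested.

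The groups contribute to these correlations, because TMP195 was high on both sides. With each group centred on its own mean, r was 0.69 for H2-Ab1 (exact p = 0.00116 over all permutations within groups), 0.657 for Cd74 (exact p = 0.00903) and 0.573 for H2-Aa (exact p = 0.0309). It was 0.516 for H2-Eb1 (exact p = 0.0647), 0.503 for Ciita (exact p = 0.0628), 0.363 for H2-DMb1 (exact p = 0.173) and 0.346 for H2-DMa (exact p = 0.303). Over the 12 libraries without the TMP195 group, r was 0.561 for H2-Ab1, 0.524 for Cd74, 0.476 for H2-Aa and 0.193 for H2-Eb1, and 0.436 for Ciita, 0.518 for H2-DMb1 and 0.367 for H2-DMa. Without TMP195 replicate 1 and Combo replicate 3, the libraries farthest from the median of Ptprc, r was 0.689 for H2-Ab1, 0.656 for Cd74, 0.637 for H2-Aa, 0.479 for H2-Eb1, 0.315 for Ciita and 0.086 for H2-DMb1. Leaving out the TMP195 group thus lowered r most for H2-Eb1 and raised it for both H2-DM genes, while leaving out those 2 libraries lowered it for 6 genes and gave 0.359 for H2-DMa.

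**Figure D3:**
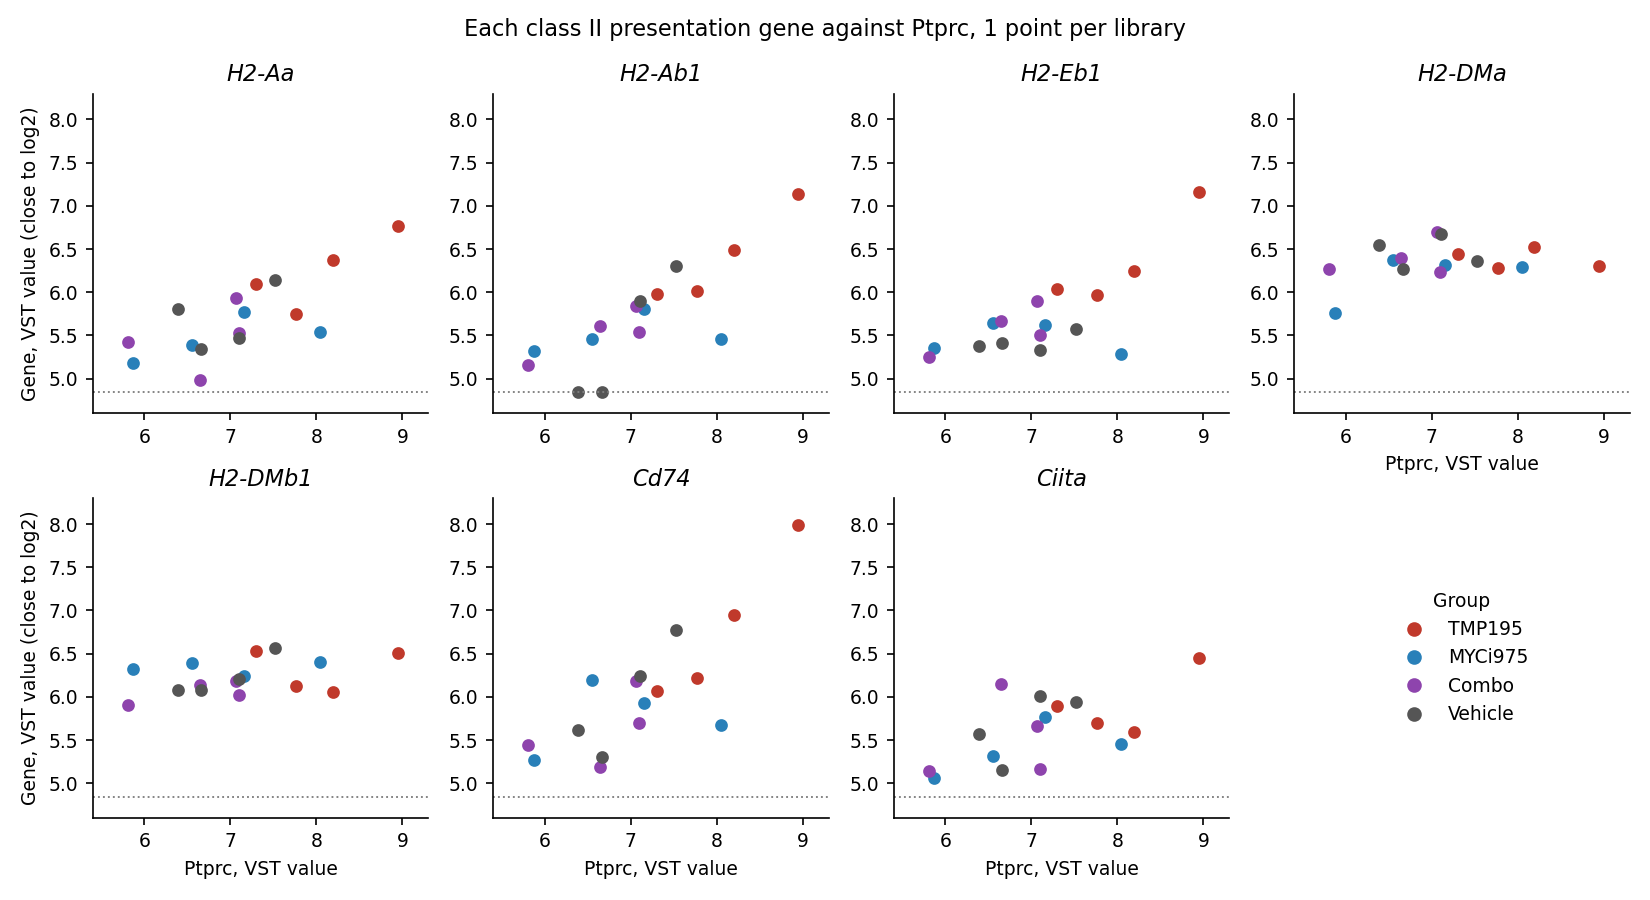
Value of each class II gene (vertical axis, variance-stabilised and close to log2) against that of Ptprc in the same library (horizontal axis), with 1 point per library coloured by group and the lowest value of the table as a dotted line. H2-Aa, H2-Ab1, H2-Eb1 and Cd74 climb with Ptprc. In these genes MYCi975 replicate 3, at a Ptprc of 8.04, lies below TMP195 replicates 2 and 4, at 8.19 and 7.77. H2-DMa and H2-DMb1 climb less clearly (r = 0.261 and 0.423).

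The slope on Ptprc within groups was fitted for all 15714 other genes. Per log2 unit of Ptprc it was 0.58 for Cd74 (SE 0.18, limma, unadjusted p = 0.00423, adjusted p = 0.334), 0.49 for H2-Ab1 (SE 0.14, unadjusted p = 0.0028, adjusted p = 0.267), 0.30 for H2-Aa (SE 0.12), 0.28 for Ciita (SE 0.13) and 0.24 for H2-Eb1 (SE 0.11). H2-DMa and H2-DMb1 had 0.10 each (SE 0.09 and 0.08). The slope of H2-Eb1 was 0.09 without TMP195 replicate 1 and 0.41 without MYCi975 replicate 3. All 7 slopes were above 0, as were 49.2% of all slopes, with a median of 0.28 against 0.00 over all genes, and 4 had an unadjusted p under 0.05, against 3.76% of all genes above 0. None of the 7 passed the adjusted threshold, which 0.274% of all genes did. When the fit had no group term, H2-Ab1, Cd74, H2-Aa and H2-Eb1 passed it, with adjusted limma p-values of 0.00426, 0.00582, 0.0262 and 0.0417.

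One library stood off this relation. MYCi975 replicate 3 had the third highest Ptprc, 8.04, with H2-Ab1 at 5.46, H2-Aa at 5.54, Cd74 at 5.67 and H2-Eb1 at 5.28. Without it, r with Ptprc was 0.895 for H2-Ab1, 0.885 for Cd74 and 0.862 for H2-Eb1. The mean of 8 neutrophil markers was 7.47 in this library, the highest of all 16, and the lowest in the MYCi975 group was 5.79. Neutrophils usually carry CD45 but little class II. Their part in this library's values was not tested.

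The class II genes differed from Vehicle by less than Ptprc did after TMP195, so their values minus that of Ptprc were lower in TMP195, and no exact test of this reached a p of 0.05. The class II value minus the Ptprc value averaged -1.70 ± 0.30 in TMP195 and -1.49 ± 0.44 in Vehicle for H2-Eb1, a difference of -0.21 (exact permutation p = 0.343), and -1.65 ± 0.22 in TMP195 and -1.45 ± 0.29 in Vehicle for H2-Ab1, a difference of -0.20 (exact permutation p = 0.286). For Cd74 the difference was -0.31 (exact permutation p = 0.171) and for H2-Aa -0.58 (exact permutation p = 0.114). For Ciita it was -0.90, for H2-DMb1 -1.06 and for H2-DMa -1.21, with exact permutation p-values of 0.0857, 0.0857 and 0.0571. For the H2-DM genes, whose own levels were near those in Vehicle, this restates the difference of Ptprc, 1.13, with its sign turned. Because the scale compresses differences of genes near its lowest value and Ptprc lies higher, a difference below 0 does not show that class II fell per leukocyte. Set against the mean of 9 leukocyte markers in place of Ptprc, those of H2-Ab1, H2-Eb1 and Cd74 turned to 0.26, 0.25 and 0.14, so their sign depends on the leukocyte measure chosen.

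The 7 genes correlated with each other to differing degrees, and differences in r were not tested. The 6 pairs among H2-Aa, H2-Ab1, H2-Eb1 and Cd74 correlated over the 16 libraries at r between 0.774 and 0.899, and at 0.624 to 0.868 with groups centred. Ciita correlated with these 4 genes at 0.52 to 0.725, and at 0.314 to 0.698 with groups centred. Pairs of an H2-DM gene with any other member ran from 0.148 to 0.489, and from 0.16 to 0.583 with groups centred, a range that overlaps that of Ciita. H2-DMa and H2-DMb1, whose products form 1 molecule, had r = -0.096 with each other, and 0.07 with groups centred. These values describe 16 libraries that share a tumour model and an unknown depth.

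The genes most like the class II pattern were found by correlating each of 15708 other tested genes with the mean of the 7 standardised class II values over the 16 libraries. The 8 highest with a gene name were Ccl9, a chemokine (0.885), Mpeg1, the perforin-like protein of macrophages (0.851), Ctss, the protease cathepsin S (0.843), H2-Q7, a class I gene with near-identical copies whose value is uncertain (0.83), Prune2 (0.823), Cytip, a cytohesin-binding protein of leukocytes (0.823), Rabgef1, an exchange factor for Rab proteins (0.82), and Ptprc itself (0.816). Across all genes, the 5th and 95th percentiles were -0.461 and 0.457. TMP195 replicate 1 had the highest mean standardised class II value, 1.92, followed by Vehicle replicate 4 at 0.72. These correlations pool the groups, and were not computed with groups centred or without TMP195 replicate 1. Ccl9 read 7.91, 7.26, 7.13 and 7.13 in TMP195 libraries, 6.01, 6.19, 6.48 and 6.32 in MYCi975, 5.78, 6.92, 5.74 and 5.61 in Combo, and 6.11, 6.58, 6.31 and 7.34 in Vehicle. As for H2-Aa, H2-Ab1 and Cd74, Vehicle replicate 4 was the highest library outside TMP195, whereas for H2-Eb1 it was Combo replicate 2.

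Further genes of the class II pathway were taken as a list of 17, of which 12 were tested. H2-Ea, H2-Eb2, H2-Oa and H2-Ob are not analysed here. After TMP195, 4 of the 12 were above Vehicle, as were 46.3% of all genes, and 8 below, with a median of -0.05, and none was called. Without Vehicle replicate 4, 7 were above it and 5 below. Ctss, which cuts the invariant chain, read 9.55, 7.70, 6.36 and 7.59 in TMP195 libraries, against 6.13, 6.24, 6.02 and 7.49 in Vehicle, and 5.91 to 6.86 in Combo. TMP195 exceeded Vehicle by 1.33 (SE 0.49, limma, unadjusted p = 0.0143, adjusted p = 0.945) and Combo differed from TMP195 by -1.56 (SE 0.49, limma, unadjusted p = 0.00504, adjusted p = 0.649). Its slope on Ptprc within groups was 0.89 (SE 0.19, limma, unadjusted p = 0.000261, adjusted p = 0.0764).

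Among genes for factors that hold Ciita on the promoter, Nfya and Nfyb, subunits of the Y box factor NF-Y, differed from Vehicle after TMP195 by -0.37 each (SE 0.13 and 0.15, limma, unadjusted p = 0.0149 and 0.0295, adjusted p = 0.945 for both). Without TMP195 replicate 1, none of the 12 genes had an unadjusted p under 0.05. The correlations of Nfya and Nfyb with the class II pattern were -0.529 and -0.369, and that of Rfx5, a subunit of the X box complex, was -0.389, the lowest 3 of the list. After Ctss, the highest were the protease gene Ctsl at 0.229 and the RFX subunit gene Rfxap at 0.202, both within the central range of all genes. In Combo, 11 of the 12 genes were below Vehicle, none with an unadjusted p under 0.05, and 7 were below it without Combo replicate 2 or without Vehicle replicate 4. Over all 15715 genes, 8265 were below Vehicle in Combo.

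**Figure D4:**
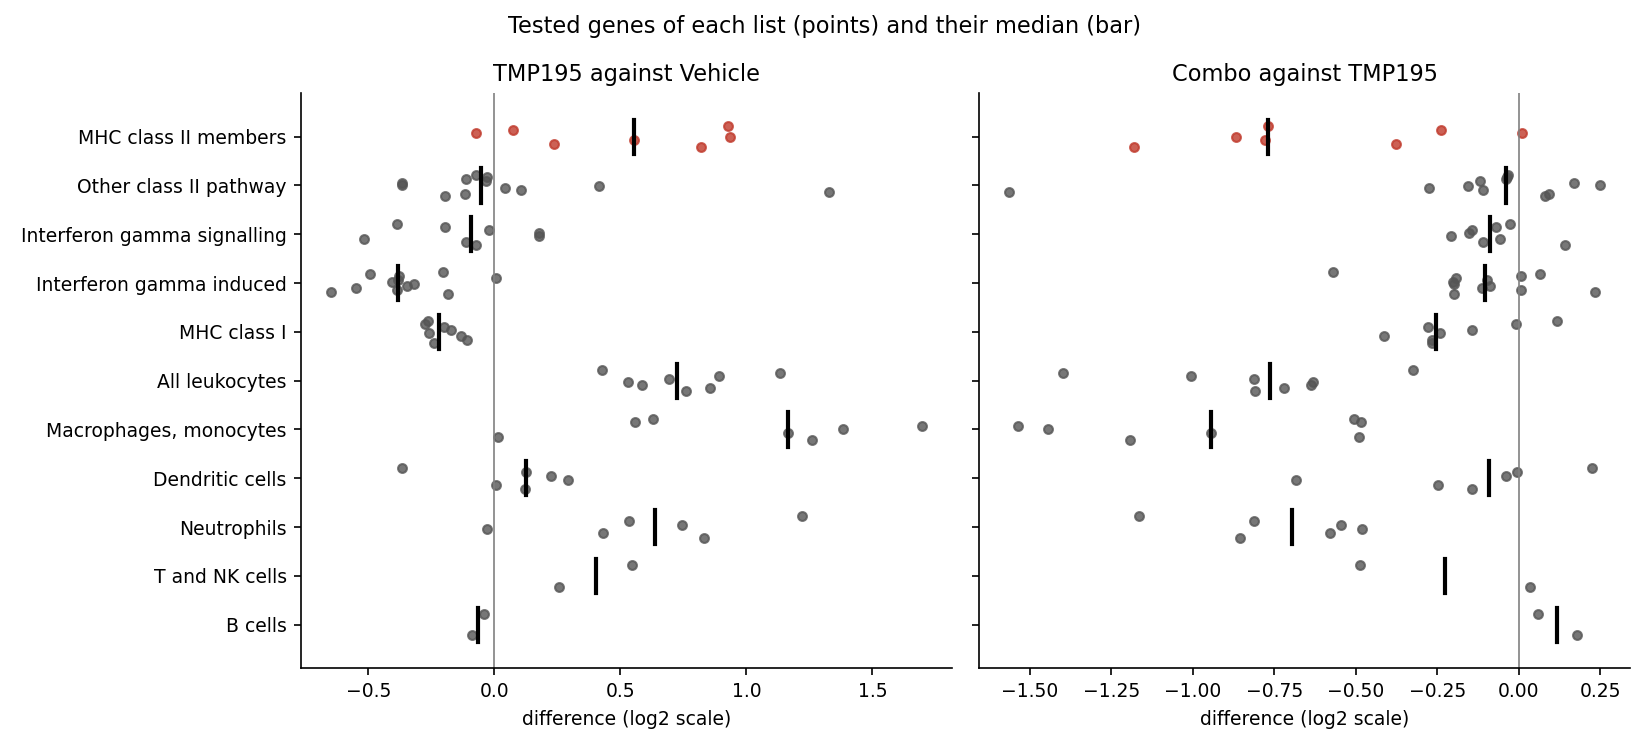
Differences on the log2 scale (horizontal axis) of the tested genes of 11 lists (points), with each list's median as a bar, for TMP195 against Vehicle and Combo against TMP195. The class II genes (red, median 0.55 and -0.77) lie on the same side of 0 as leukocyte, macrophage and neutrophil markers. Genes induced by interferon gamma (median -0.38 and -0.11) and class I genes (-0.22 and -0.25) lie below 0 in both panels, but after TMP195 their medians are 0.12 and 0.15 without TMP195 replicate 4.

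Interferon gamma is the best known inducer of Ciita, and the direction of its response genes after TMP195 turned with 1 library. The cytokine gene Ifng was at the lowest value in 11 of 16 libraries, never passed the detection level and was not tested. Its highest libraries, both under that level, were TMP195 replicates 1 and 2, at 5.69 and 5.37. These libraries had the highest means of the 7 class II genes, 6.90 and 6.32, and also the highest Ptprc, 8.95 and 8.19. Ifng itself was not related to these values by any test. Of 8 tested genes for its receptor and signalling, 6 were below Vehicle after TMP195, including Irf1 with a difference of -0.52, and none had an unadjusted p under 0.05, while without TMP195 replicate 4, 4 were below it. Of 12 genes that the cytokine induces, such as Cxcl9, Cxcl10 and the Gbp genes, 11 were below Vehicle after TMP195 with a median of -0.38, 12 were below it in Combo with a median of -0.43, and 3 were below it after MYCi975 with a median of 0.06. Of all 15715 genes, 8445 were below Vehicle after TMP195, 8265 in Combo and 8318 after MYCi975. TMP195 replicate 4 had the lowest mean of these 12 genes of all libraries, 8.60, against 11.11, 10.07 and 10.09 in TMP195 replicates 1 to 3. Without it, 9 of the 12 were above Vehicle, with a median of 0.12, and none had an unadjusted p under 0.05. In Combo against TMP195, where 8 of the 12 were lower (median -0.11), 11 were higher without TMP195 replicate 1 (median 0.32). In Combo against Vehicle, 10 were lower without Combo replicate 4 (median -0.18), and the median was -0.25 without Vehicle replicate 2 and -0.24 without Vehicle replicate 4. Nlrc5, the coactivator of class I genes, had an unadjusted p under 0.05 in Combo, where it differed from Vehicle by -0.77 (SE 0.36, limma, unadjusted p = 0.0483, adjusted p = 0.987). The list mean ranged over 8.60 to 11.11 in TMP195, 9.69 to 10.94 in MYCi975, 9.01 to 10.43 in Combo and 9.67 to 11.01 in Vehicle, so the groups overlapped throughout.

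Within groups, all 12 slopes of these induced genes on Ptprc were above 0, as were 49.2% of all slopes, with a median of 0.63. Of the 12, 11 had an unadjusted p under 0.05, against 3.76% of all genes above 0, though none passed the adjusted threshold. Their correlations with the class II pattern had a median of 0.517, from 0.373 for Cxcl10, 0.396 for Irgm1 and 0.45 for Ido1 up to 0.562 for Gbp4, 0.593 for Cd274 and 0.594 for Nlrc5. Among the signalling genes, Irf2 was highest at 0.622, followed by Jak2 at 0.431 and Irf1 at 0.372, and Ifngr2, Socs1 and Ifngr1 were lowest at 0.304, 0.226 and -0.046. The 8 class I genes, among them H2-K1, H2-D1, B2m and Tap1, were all below Vehicle after TMP195 (median -0.22) and in Combo (median -0.43), none with an unadjusted p under 0.05. Below Vehicle were 8445 of all 15715 genes after TMP195 and 8265 in Combo. Without TMP195 replicate 4, 7 of the 8 were above Vehicle after TMP195 (median 0.15), and without Vehicle replicate 4, 4 were above it (median -0.02). In Combo all 8 were below Vehicle without Vehicle replicate 4 as well (median -0.18).

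Markers of leukocytes differed in the same direction as the class II genes. After TMP195, all 8 tested leukocyte markers were above Vehicle (median 0.73, 6 with an unadjusted p under 0.05), as were all 7 tested markers of macrophages and monocytes (median 1.17, 5 under 0.05). Over all genes, 46.3% were above Vehicle and 2.44% were above it at this unadjusted p. The macrophage marker Csf1r passed the detection level in 3 TMP195 and 2 Combo libraries and in no Vehicle library. The leukocyte markers Fcer1g and Tyrobp each passed it in 3 TMP195 libraries and 1 MYCi975 library. These markers entered the tests mainly through TMP195, so the counts partly follow from the filter. Without TMP195 replicate 1, the 8 leukocyte markers had a median of 0.38 and none was under 0.05, and the macrophage markers had a median of 0.88 with 5 under 0.05. Among the macrophage markers, Csf1r, the receptor for macrophage growth factor, exceeded Vehicle by 1.17 (SE 0.30, limma, unadjusted p = 0.0013, adjusted p = 0.945) and Lyz2, a lysozyme gene, by 1.70 (SE 0.46, limma, unadjusted p = 0.00173, adjusted p = 0.945). The lowest of these differences was that of Cd68, 0.01, with means of 6.68 in TMP195 and 6.66 in Vehicle. The mean of the 13 macrophage markers was 5.84 to 7.10 in TMP195, 5.60 to 5.94 in MYCi975, 5.66 to 6.18 in Combo and 5.57 to 6.22 in Vehicle. That of the 9 leukocyte markers was 6.33 to 7.74 in TMP195, 6.04 to 7.01 in MYCi975, 6.02 to 6.51 in Combo and 6.09 to 6.58 in Vehicle. In Combo against TMP195, all of these tested markers were lower, with medians of -0.76 for leukocytes and -0.94 for macrophages, or -0.40 and -0.66 without TMP195 replicate 1. Over all genes, 50.7% were higher in Combo than in TMP195, and both comparisons share the TMP195 libraries.

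Neutrophil and fibroblast markers were counted in the same way. Of 6 tested neutrophil markers, 5 were above Vehicle after TMP195 (median 0.64, 2 under 0.05), and all 6 were lower in Combo than in TMP195 (median -0.70, 3 under 0.05). Over all genes, 46.3% were above Vehicle after TMP195 and 2.44% were above it at an unadjusted p under 0.05. Lower in Combo than in TMP195 at such a p were 2.84% of all genes. Among the neutrophil markers, Mmp8 passed the detection level only in 3 TMP195 libraries and 1 MYCi975 library. The 6 fibroblast markers were split after TMP195, with 4 above Vehicle and 2 below (median 0.08), and all 6 were higher in Combo than in TMP195 (median 0.31, 2 under 0.05). Of all 15715 genes, 50.7% were higher in Combo than in TMP195, 391 of them at such a p. The part of these cells in the class II values was not tested.

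The defining macrophage gene Adgre1 never passed the detection level, C1qa and C1qb passed it in 3 libraries each, and C1qc in none, while Lyz2, Itgam, Cd68 and Mrc1 passed it in all 16. For dendritic cells, 5 of 6 tested markers were above Vehicle after TMP195, as were 46.3% of all genes. Their median was 0.12 with none under 0.05, and the list mean stayed within 5.96 to 6.31 in all groups. Itgax, Flt3, Irf8, Zbtb46 and Xcr1 passed the detection level in all 16 libraries and Ccr7 in none. For B cells, Ms4a1 and Cd79a passed it in none, while Pax5 passed it in all 16 and Cd22 in 15, both within 0.09 of Vehicle after TMP195, and the list mean ranged over 5.76 to 6.09 in TMP195, 5.76 to 6.07 in MYCi975, 5.88 to 6.13 in Combo and 5.90 to 5.99 in Vehicle. For T and NK cells, Cd3e and Cd4 passed it in none, Cd3d in 15, and Il2rb, a receptor chain for interleukin 2 and interleukin 15, in 8, of which 4 were TMP195 libraries, 3 Combo and 1 Vehicle. Only Cd3d and Il2rb of this list were tested. Il2rb read 6.71, 6.24, 6.21 and 6.21 in TMP195 libraries, against 5.88, 5.76, 5.74 and 5.81 in Vehicle, without overlap, a separation that 1.1% of all genes showed. The difference was 0.55 (SE 0.16, limma, unadjusted p = 0.00304, adjusted p = 0.945), and in the F test over the 4 groups Il2rb ranked 11th of 15715 genes (unadjusted p = 0.00103). The T and NK list mean was 5.46 to 5.75 in TMP195, 5.19 to 5.45 in MYCi975, 5.29 to 5.42 in Combo and 5.24 to 5.42 in Vehicle. All of these means lay under the detection level. The lowest TMP195 library, at 5.457, was close to MYCi975 replicate 1, at 5.446. Of the 8 genes averaged, 5 were under the detection level in all 4 TMP195 libraries and 6 in all 4 Vehicle libraries. A difference of this mean between groups was not tested.

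The markers' correlation with the class II pattern was given by the same measure as above, which pools the groups and was not computed without TMP195 replicate 1. Its median was 0.749 over the 7 macrophage markers, all past the 95th percentile of all genes, and 0.682 over the 8 leukocyte markers, also all past it. It was 0.481 over 6 neutrophil markers, 0.483 over 2 T and NK markers, 0.202 over 6 dendritic cell markers and -0.02 over 2 B cell markers. Single markers varied within a list. The dendritic cell markers ran from -0.347 for Zbtb46 to 0.781 for Irf8, and the T and NK markers were Cd3d at 0.236 and Il2rb at 0.73. With Ptprc as a covariate in the comparison of groups, the median of the 7 class II genes was 0.16 for TMP195 against Vehicle, in place of 0.55, and -0.19 for Combo against TMP195, in place of -0.77. The value for H2-Eb1 was then 0.65 for TMP195 against Vehicle and -0.43 for Combo against TMP195. Whether tumour cells or leukocytes made the class II RNA cannot be told apart in these bulk libraries.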

How the data were processed

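RNA sequencing was done on 16 libraries of enriched tumour cells. Per the labels' protocols, RNA was purified with an RNeasy Mini kit and libraries were made with the SMARTer Stranded Total RNA kit. The submitters' processing notes list Salmon with no version, and name build hg38 although the gene identifiers are mouse. The deposited values are on a variance-stabilised scale close to log2, and the tool behind it is not given in the sources used here. Depth is unknown: 1960 to 3130 genes per library were at the lowest value, and library medians were 6.50 to 6.66. Symbols were matched by identifier without version for 23150 of 24334 genes (95.13%).

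Genes at least 1 above the lowest value in at least 4 libraries were tested (15715). A limma 3.58.1 model (R 4.3.3) with 1 mean per group and an intensity trend was fitted to all 16 libraries, without replicate blocks. P-values are two-sided, with Benjamini-Hochberg adjustment over all tested genes within a comparison and calls at an adjusted p under 0.05. A second fit added Ptprc. Correlations used permutation tests with 100000 resamples, and within groups all 331776 permutations (SciPy 1.17.1). The fits were tested on simulated data.

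The 7 genes, the lists and the tests were chosen with earlier results of these data known. Named are the 7 genes, Ptprc, pathway genes with an unadjusted p under 0.05 against Vehicle or among the highest or lowest 3 correlations with the mean standardised class II value, and the 8 genes most correlated with it. Marker genes named beside them were chosen after their values were seen. The alternatives were other filters, moderation and normalisation, sample weights, replicate blocks, Ptprc as a covariate, and leaving out libraries. Leaving out the 2 libraries farthest from the median of Ptprc, and single libraries for the gene lists, was chosen after seeing the data.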

Additional observations from a re-analysis of the deposited data

Results flagged for a closer look

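Among 32 combinations of 8 genes (the 7 class II genes and Ptprc) with 4 groups, 1 library lay far from the others of its group. H2-DMa in MYCi975 replicate 2 read 5.76, below the next library of its group at 6.29, and this gap made up 0.871 of the range of the group, above Dixon's critical value for 4 libraries. Chance gives such a case in about 5% of groups. Ptprc was also lowest of its group in this library, at 5.87.

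For H2-DMb1, the differences made by MYCi975 had opposite signs without and with TMP195. All 4 MYCi975 libraries lay above the Vehicle mean, by 0.108 on average, and all 4 Combo libraries lay below the TMP195 mean, with an average difference of -0.239. The test of the difference between the effects gave an unadjusted p of 0.108 and an adjusted p of 1 in limma. Single libraries of the groups overlapped in both comparisons.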

How the results depend on the processing

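The calls between groups did not depend on the processing: none of the 7 class II genes was called in any comparison of groups under any alternative run, and no member passed the stricter filter (2 above the lowest value in 8 libraries), which gave no value. Ptprc as a covariate made the median of the 7 0.158 for TMP195 against Vehicle (0.553 in the reported fit), -0.185 in Combo against TMP195 (-0.769) and -0.152 in the interaction (-0.558). Without the libraries numbered 4, the median for TMP195 against Vehicle was 0.87. Leaving out each library in turn gave medians of 0.38 to 0.719 for TMP195 against Vehicle and -0.896 to -0.501 for Combo against TMP195, while MYCi975 against Vehicle, -0.335 to 0.045, and Combo against MYCi975, -0.073 to 0.152, changed sign. For the slope on Ptprc, 4 genes were called without a group term and 0 with it.

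Some directions reversed, and the cause was not tested. For TMP195 against Vehicle these were H2-DMa at 0.004 with quality weights, H2-DMb1 at -0.035 and Ciita at -0.083 with Ptprc as a covariate, and H2-DMb1 at -0.001 to 0.185 over libraries left out. For Combo against TMP195 these were H2-DMa at -0.003 with median centring, -0.075 with weights, -0.019 without TMP195 replicate 1 and MYCi975 replicate 3 and -0.089 to 0.064 over libraries left out, and Ciita at 0.019 with Ptprc as a covariate. The correlation of H2-DMa with Ptprc was -0.06 to 0.446 over libraries left out. With the leukocyte mean in place of Ptprc, relative levels of H2-Ab1, H2-Eb1 and Cd74 were 0.255, 0.248 and 0.141. Without TMP195 replicate 3, those of H2-DMb1 and Ciita were -1.384 and -1.144, each with an exact permutation p of 0.0286.

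Over all genes, Combo against TMP195 had 0 calls and 65 with quality weights. The slope on Ptprc had 43, and 128 without a group term, 83 without the libraries numbered 4, 80 with weights, 8 without MYCi975 replicate 3 and 2 without it and TMP195 replicate 1. The labels give replicates a number and no shared source, and correlations of deviations between same-numbered libraries of 2 groups ranged over -0.109 to 0.428, so the pairing criterion of over 0.1 in every pair was not met. As a hint from the data, the libraries numbered 1 and 4 correlated best with their own number in 10 of 10 pairs, at 0.172 to 0.428, and those numbered 2 and 3 in 2 of 10. The numbers as a replicate block gave 72 calls for the slope and changed no call of the class II genes. Unknown depth and values near the lowest one limit all of these differences.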
